A study of Mus musculus with 38 samples.

Results

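The RNA, DNA methylation and promoter histone marks of 9 germline genes were compared in neural stem/progenitor cells (NSPCs) grown from the mouse subventricular zone (SVZ), at 2 ages. The 9 genes are Dazl, Ddx4, Mael, Sycp3, Stk31, Tex101, Slc25a31, Asz1 and Tdrkh, chosen under a label that calls them silenced by promoter methylation. Each symbol matched 1 gene of the 25965 in the RNA table and at least 1 promoter window in the ChIP table. For 8 of the 9 genes the label held at the DNA level, with 80.0 to 93.6% of oxBS-seq calls methylated around the transcription start. Of these 8, Ddx4 and Sycp3 had RNA reads in every library. Ddx4 had 12 to 55 reads per library, so it was not free of RNA reads, but whether its start was in use was not tested. Sycp3 reads cannot all be told apart from those of an overlapping gene. Tdrkh did not match the label: its promoter had 3.45% methylated calls, carried H3K4me3 and it had at least 789 RNA reads in each library, so it is described below as an unmethylated, transcribed gene.

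Young adult NSPCs came from male C57BL/6JBabr mice of 3 months and aged NSPCs from male C57BL/6JBabr mice of 18 months. Each derivation combined the SVZ of 5 mice, and the cells were harvested as neurospheres in EGF and FGF at passage 2, so the values describe cultured cells and not SVZ tissue. Each age had 3 RNA-seq, 3 bisulfite (BS-seq) and 3 oxidative bisulfite (oxBS-seq) libraries. The BS-seq and oxBS-seq libraries came from the same derivations, so agreement between them is not an independent repeat. Native ChIP also had 3 libraries per age for each of the marks H3K4me3 and H3K27me3 and for the Input. The processed ChIP values used here hold 1 value per age for each of them. A further pair of RNA libraries, 1 per age, came from C57BL/10 mice kept in another facility, so strain and housing cannot be told apart in it, and it is given as values only. In BS-seq a call is methylated for 5-methylcytosine (5mC) or 5-hydroxymethylcytosine (5hmC), and in oxBS-seq for 5mC only.

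In mammals, germline genes of this kind start from CpG-rich promoters that gain DNA methylation in the embryo after implantation and keep it in somatic cells. This sets them apart from most CpG-rich promoters, which stay unmethylated whether or not the gene is transcribed, and which are often covered by H3K27me3, the Polycomb mark, when silent. H3K4me3 marks the starts of active or poised genes. In germ cells the products of the 9 genes act in RNA control (Dazl and the helicase Ddx4), in transposon silencing by piRNAs (Mael, Asz1 and the Tudor protein Tdrkh), and in pairing of meiotic chromosomes (Sycp3). Slc25a31 encodes a germ-cell ADP/ATP carrier, Stk31 a Tudor-domain kinase-like protein and Tex101 a surface glycoprotein of germ cells.

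The 5 stretches of sequence below are shown because they span the range of states found. Letters are 5′ to 3′ on the strand of the gene, in GRCm38.p6, and the capitals mark each CpG, the site read by the methylation assays. The first 4 lie upstream of the RefSeq start and the last lies in the first part of the Dazl gene body. All were cut so that they hold no GENCODE vM21 exon.
Slc25a31, chr3:40708621-40708854, plus strand, the most methylated start of the 9 by oxBS-seq: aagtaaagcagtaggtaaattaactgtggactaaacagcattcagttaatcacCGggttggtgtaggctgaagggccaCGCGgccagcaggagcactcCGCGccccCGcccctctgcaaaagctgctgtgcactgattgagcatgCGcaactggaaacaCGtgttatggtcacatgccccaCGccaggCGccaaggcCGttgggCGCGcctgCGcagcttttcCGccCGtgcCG
Sycp3, chr10:88459337-88459568, plus strand, methylated, with RNA reads: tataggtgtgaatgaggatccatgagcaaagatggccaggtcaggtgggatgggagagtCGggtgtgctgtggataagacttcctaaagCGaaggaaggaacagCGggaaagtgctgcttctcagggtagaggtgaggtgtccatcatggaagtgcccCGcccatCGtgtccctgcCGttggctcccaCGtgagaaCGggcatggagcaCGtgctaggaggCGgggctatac
Dazl, chr17:50293637-50293870, minus strand, methylated: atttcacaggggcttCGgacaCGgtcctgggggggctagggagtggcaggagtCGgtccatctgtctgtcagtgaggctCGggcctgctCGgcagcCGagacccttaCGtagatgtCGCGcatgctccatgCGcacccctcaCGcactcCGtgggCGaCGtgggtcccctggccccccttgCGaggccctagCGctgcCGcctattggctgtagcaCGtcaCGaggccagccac
Tdrkh, chr3:94412994-94413243, plus strand, unmethylated: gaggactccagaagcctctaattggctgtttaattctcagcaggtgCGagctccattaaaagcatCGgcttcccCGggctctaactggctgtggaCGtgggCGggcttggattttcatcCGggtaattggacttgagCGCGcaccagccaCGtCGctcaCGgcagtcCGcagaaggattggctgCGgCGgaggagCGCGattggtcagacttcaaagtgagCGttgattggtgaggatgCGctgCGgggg
Dazl, chr17:50292893-50293099, minus strand, inside the gene, unmethylated: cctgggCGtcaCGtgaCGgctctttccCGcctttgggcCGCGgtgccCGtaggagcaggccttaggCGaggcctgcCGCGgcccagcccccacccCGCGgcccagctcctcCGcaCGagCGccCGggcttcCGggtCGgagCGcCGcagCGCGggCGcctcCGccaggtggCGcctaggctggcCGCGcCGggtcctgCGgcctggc
The Slc25a31 stretch held 17 CpGs in 234 bases, the Sycp3 stretch 10 in 232 and the upstream Dazl stretch 19 in 234. The unmethylated Tdrkh stretch held 19 in 250 bases, and the unmethylated Dazl stretch 29 in 207.

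In GRCm38 the starts used were on chromosome 17 at 50293599 (Dazl, minus strand), 13 at 112652310 (Ddx4, minus), 1 at 166238744 (Mael, minus), 10 at 88459569 (Sycp3, plus) and 6 at 49395604 (Stk31, plus). The others were on chromosome 7 at 24672050 (Tex101, minus), 3 at 40708855 (Slc25a31, plus), 6 at 18109057 (Asz1, minus) and 3 at 94413318 (Tdrkh, plus). The core window of each gene reached 500 bp on either side of the start given in the ChIP table. It held between 32 CpGs (Tex101) and 77 (Ddx4), with a median of 61 over the 9 genes, against a median of 34 over all 25875 genes with a window. The other counts were 72 for Dazl, 67 for Tdrkh, 61 for Mael, 61 for Slc25a31, 59 for Stk31, 46 for Sycp3 and 38 for Asz1. Observed over expected CpG ran from 0.435 in Tex101 to 0.781 in Tdrkh. Tdrkh thus lay inside the range of CpG numbers of the methylated genes.

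A pair of short motifs was searched on both strands of the promoter that RefSeq gives for each start (250 bases before and 50 after). CACGTG is the E-box read by MAX dimers, and TCCCGC is a core read by E2F factors, which include E2F6. CACGTG was found in 5 of the 9 genes (Ddx4, Mael, Sycp3, Stk31 and Slc25a31) and in 7.15% of 32851 RefSeq promoters. TCCCGC was found in 4 of the 9 (Ddx4, Mael, Sycp3 and Slc25a31) and in 20.0% of the promoters. Both occurred together in the same 4 genes, and in 1.99% of all promoters. Dazl, Tex101, Asz1 and Tdrkh held neither motif in this window. The unmethylated stretch inside Dazl (the last sequence above) held each motif once. In the 207 bases before each RefSeq start, the same length, CACGTG was found in 5.38% and TCCCGC in 15.3%. The motifs do not overlap each other in letters, and a match is a description of the sequence only.

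Methylation was first read as 5mC by oxBS-seq, as the share of methylated calls in the core window of each library. All 9 genes had at least 10 calls in every library, as did 14544 of the 25875 genes. The calls per library ran from 10 to 123 with a median of 36, so a single percentage carries a wide counting error. Over the whole genome the 12 methylation libraries held 13616283 to 30400033 calls.

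Slc25a31 was the most methylated in oxBS-seq. Its young adult libraries held 87.0, 89.5 and 95.7% methylated calls and its aged libraries 94.0, 95.2 and 100%. The values overlapped between the ages. Its pooled level was 91.9% of 272 calls (95% Wilson interval 88.1 to 94.6%), and 99.9% of the promoters measured were lower.

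Stk31 stood at 93.3, 88.2 and 77.1% in the young adult libraries and at 93.0, 95.7 and 100% in the aged. The aged library at 100% rested on 11 calls. The ages overlapped by the young adult library at 93.3%. The pooled level was 90.7% of 215 calls (Wilson 86.1 to 93.9%).

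At the Dazl start the young adult values were 95.1, 87.5 and 84.6% and the aged values 85.0, 86.7 and 93.3%. Both ages spanned the same range. The pooled level was 88.4% of 232 calls (Wilson 83.6 to 91.9%).

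For the piRNA genes Asz1 and Mael the pattern was alike. Asz1 had 84.6, 83.9 and 92.3% in young adult and 92.3, 95.5 and 80.0% in aged NSPCs. Mael had 85.7, 79.1 and 90.9% in young adult and 92.7, 84.6 and 93.3% in aged NSPCs. The ages overlapped in both genes, and the pooled levels were 88.4% of 172 calls for Asz1 and 87.0% of 185 calls for Mael.

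The Sycp3 values were 82.8, 86.5 and 79.2% in young adult NSPCs and 88.0, 92.6 and 87.5% in aged NSPCs. Here all 3 aged libraries lay above all 3 young adult libraries. The pooled level was 85.4% of 198 calls (Wilson 79.8 to 89.6%).

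Ddx4 and Tex101 were the least methylated of the 8. Ddx4 had 90.3, 100 and 66.7% in young adult and 80.6, 72.4 and 73.5% in aged NSPCs, and the young adult library at 100% held 10 calls. Tex101 had 94.7, 85.7 and 74.1% in young adult and 77.8, 75.0 and 72.7% in aged NSPCs, the aged values from 11 to 18 calls. The ages overlapped in both genes. The pooled levels were 77.2% of 259 calls for Ddx4 (Wilson 71.7 to 81.9%) and 82.8% of 134 calls for Tex101 (Wilson 75.6 to 88.3%).

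Tdrkh had 1.63, 6.98 and 1.85% methylated calls in young adult and 2.56, 7.69 and 0% in aged NSPCs. The pooled level was 3.16% of 474 calls (Wilson 1.93 to 5.16%). This put Tdrkh near the median promoter, which had 1.61%, and 63.0% of promoters were lower.

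Among the 14544 promoters, 1214 (8.35%) reached a mean of 50%, and 8 of the 9 genes did so. Each of those 8 was higher than at least 96.7% of promoters. Intervals cover counting error only, since reads without molecular identifiers are not independent molecules.

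**Figure D1:**
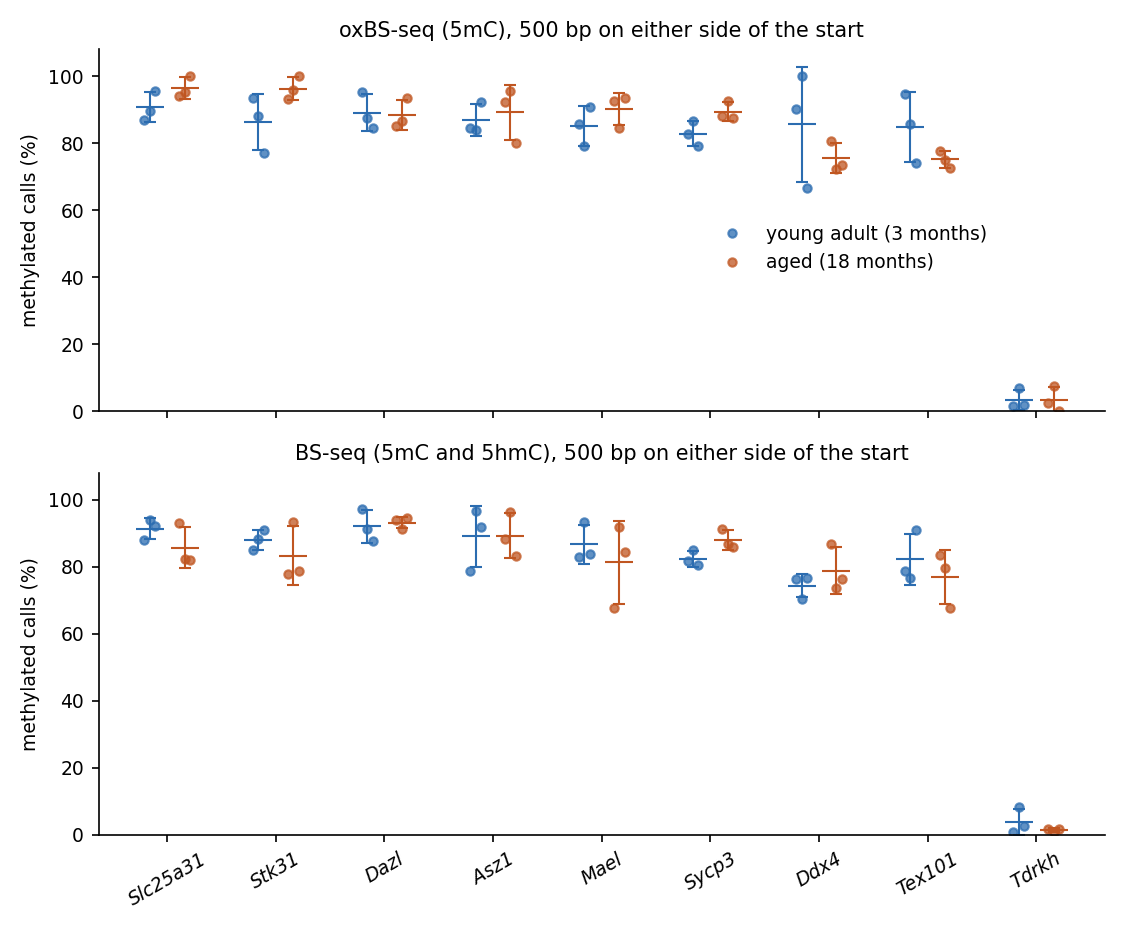
Share of methylated calls (%) within 500 bp of the start in each library, by oxBS-seq (top) and BS-seq (bottom), for young adult (blue) and aged (orange) NSPCs. Points are libraries, horizontal bars are means and whiskers are SD (n = 3), with genes ordered by their oxBS-seq mean. The 8 methylated genes sit between 66.7 and 100% in every library of both assays, and Tdrkh between 0 and 8.33%.

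BS-seq gave the same division, among 17273 promoters of which 17.1% reached a mean of 50%. Each of the 8 methylated genes was higher than at least 90.5% of these promoters, with Ddx4 the lowest. Over the 8 methylated genes the BS-seq mean ran from 76.6% (Ddx4) to 92.6% (Dazl), and Tdrkh stood at 2.72%. The pooled BS-seq level minus the pooled oxBS-seq level ran from -5.54 points in Stk31 to 2.69 points in Dazl, with a median of -2.07 points over the 8. The Wilson intervals of both assays overlapped for all 9 genes. These intervals pool the libraries and leave out the spread between them, and the difference between the assays was not tested. The values thus do not settle whether these starts hold 5hmC.

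The comparison of ages asks whether the methylation of these starts was kept between 3 and 18 months. None of the 9 genes was called different in oxBS-seq or in BS-seq. Across all promoters the call, an adjusted p under 0.05 with a difference of at least 10 points in a quasi-binomial model, was met by 0 of 14544 in oxBS-seq (0%) and by 0 of 17273 in BS-seq (0%). At an unadjusted p under 0.05 there were 425 and 608.

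In oxBS-seq the mean was higher in aged NSPCs for 5 genes and lower for 4. Among the higher means, Stk31 had 86.2% ± 8.28 at 3 months and 96.3% ± 3.52 at 18 months (SD, n = 3), and Sycp3 had 82.8% ± 3.66 and 89.4% ± 2.81. Among the lower means, Ddx4 had 85.7% ± 17.1 in young adult and 75.5% ± 4.44 in aged libraries, and Tex101 had 84.8% ± 10.4 and 75.2% ± 2.53. The smallest unadjusted p among the 9 was 0.105 for Stk31, and all adjusted p were 0.991 or higher in the quasi-binomial model.

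The sign of the difference was the same in both assays for 4 of the 9 genes, with higher means in aged NSPCs for Sycp3 and Asz1 and lower means for Tex101 and Tdrkh, but for Asz1 and Tdrkh this rests on a difference near 0. Asz1 was at 0.16 points in BS-seq, at -4.96 without young adult library 1 and at -3.40 without aged library 2, and in oxBS-seq it was at -0.78 without aged library 2. Tdrkh was at -0.07 points in oxBS-seq and at 1.68 without young adult library 2, 0.36 without aged library 1 and 1.64 without aged library 3. Stk31 was 10.0 points higher in oxBS-seq and -4.73 points in BS-seq relative to young adult. Ddx4 was -10.1 points in oxBS-seq and 4.47 points higher in BS-seq. These are differences of the library means, and single libraries moved them. In oxBS-seq Ddx4 was at -2.98 points without young adult library 2 and at -19.6 without young adult library 3, and Stk31 was at 5.47 points without young adult library 3. Tex101, at -9.67 points with all libraries, was at -4.73 without young adult library 1 and at -15.1 without young adult library 3. In BS-seq Ddx4 was at 2.48 points without young adult library 2, 0.54 without aged library 1 and 7.08 without aged library 2. There Stk31 was at -1.98 points without aged library 1, -9.75 without aged library 2 and -2.46 without aged library 3. Tex101 was at -5.27 points in BS-seq, at -7.99 without young adult library 2, -0.87 without young adult library 3, -8.51 without aged library 1 and -0.71 without aged library 3.

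For the difference of the pooled levels, the 95% intervals take in the counting of calls and the moderated dispersion fitted between libraries. They are not adjusted for the number of promoters tested, so larger changes than these could go uncalled. In oxBS-seq the interval ran from -2.02 to 13.7 points in Slc25a31, the narrowest of the 8, and from -30.2 to 9.42 points in Tex101, the widest. In BS-seq the half-width of the interval was between 7.70 and 14.7 points over the 8 genes. For Tdrkh the oxBS-seq interval was -3.15 to 6.04 points.

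Sycp3 was the 1 gene of the 8 with every aged library above every young adult library in oxBS-seq, and none had the reverse order. Among all promoters 3.4% had every aged library above every young adult library, and among the 1214 methylated promoters 6.43%. In BS-seq 3.98% of all promoters had this order. Promoters with the reverse order were not counted, so these shares cover 1 direction only. In BS-seq Sycp3 stood at 81.6, 85.0 and 80.3% in young adult and 91.3, 86.7 and 86.0% in aged NSPCs, again with no overlap. Both assays read the same derivations, so the BS-seq order is not an independent repeat. Of the 996 methylated promoters measured in both assays, 0.803% had aged libraries above in both. The quasi-binomial test gave an unadjusted p of 0.256 in oxBS-seq and 0.318 in BS-seq for Sycp3, with an adjusted p of 0.991 and 0.952. With 1000 bp on either side the BS-seq difference of Sycp3 was -1.13 points, in the other direction.

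Along the promoter, Tdrkh and Dazl held bins of near-complete lack of methylation beside or over the start in oxBS-seq. Tdrkh was at 5.56% or lower in each 250-bp bin from 1000 bp before its start to 250 bp after it, and at 100% of 15 calls in the bin from 500 to 750 bp, where BS-seq gave 68.8% of 16 calls. The unmethylated block of Tdrkh thus spanned its start and ended in the gene. The remaining methylated genes had 69.2% or more of oxBS-seq calls methylated in each bin from 500 bp before to 250 bp after the start, and in BS-seq the lowest of these bins was that of Ddx4 just before the start, at 66.7% of 105 calls. Farther out, lower bins were also seen in other genes. Sycp3 had 50.0% of 28 oxBS-seq calls from 1750 to 1500 bp before its start and 35.5% of 31 from 1000 to 1250 bp after it, where BS-seq gave 38.1% of 21 and 65.4% of 26. Tex101 had 41.2% of 17 oxBS-seq calls from 1750 to 1500 bp before its start and 23.1% of 13 from 1250 to 1000 bp before it, and BS-seq gave 66.7% of 15 in the latter.

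Dazl carried a methylated start beside an unmethylated CpG-rich stretch inside the gene. From 500 bp before to 400 bp after the start, oxBS-seq gave 90.9% ± 3.56 at 3 months and 91.8% ± 6.21 at 18 months (SD, n = 3). From 500 to 1000 bp after the start it gave 7.80% ± 2.21 and 7.22% ± 7.52. The stretch had 8.82, 5.26 and 9.30% in the 3 young adult libraries and 0, 6.67 and 15.0% in the 3 aged libraries, and the ages overlapped.

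Pooled, the downstream Dazl stretch had 7.11% of 253 oxBS calls (Wilson 4.55 to 11.0%), and the stretch around the start, which takes in the first 400 bp of the gene, 91.0% of 211 calls. BS-seq gave 9.43% of 244 calls downstream and 93.4% of 304 around the start. Each of the 12 libraries of both assays had at least 85.0% around the start and at most 20.5% in the downstream stretch. The limits of the stretch were set after the values were seen, so it carries no test.

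The part of this stretch printed above lies in an intron of the main Dazl transcript, holds no GENCODE exon and ends 1 base before the start of a further annotated transcript, Dazl-204, which begins 707 bp downstream of the main start. A second, smaller dip was seen from 1750 to 1500 bp before the Dazl start, with 30.8% of 39 oxBS-seq calls. Past 1000 bp into the gene, methylation did not return to the level of the start in the bins with calls. Dazl had 31.25% of 32 oxBS-seq calls from 1000 to 1250 bp and 0% of 10 from 2000 to 2250 bp. BS-seq gave 42.1% of 38 and 0% of 17 in these bins. From 1500 to 2000 bp each bin held 13 calls or fewer in an assay, at most 38.5% of them methylated. With the window widened to 1000 bp on either side, which takes in the downstream stretch, Dazl had 50.0% methylated calls.

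**Figure D2:**
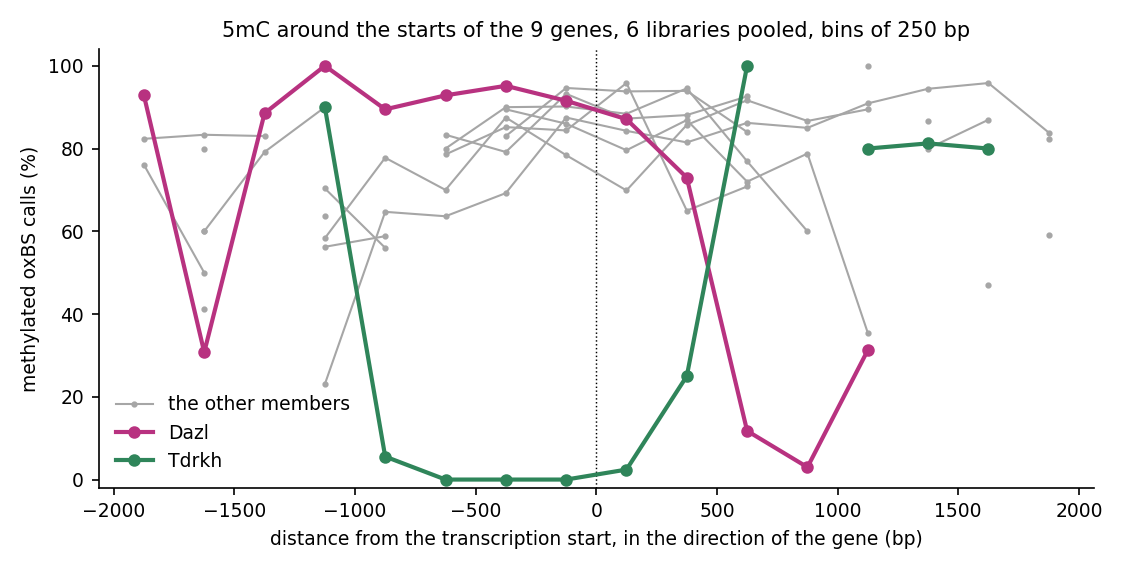
Share of methylated oxBS calls (%) in 250-bp bins by distance from the transcription start (bp, positive inside the gene), with the 6 libraries pooled and bins under 10 calls left out. Dazl (magenta) falls from 87.1% in the bin after the start to 3.0% in the bin from 750 to 1000 bp, Tdrkh (green) is near 0 around its start, and the other 7 genes (grey) stay high there.

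RNA was compared on the deposited log2 RPM. These are scaled to library size and hold no correction for gene length, so an RPM value counts reads and does not order genes by transcript number. Where genes of a list are named below by their RPM, the order is one of reads only. Whole reads were recovered from the values, with 16952486 to 41053972 reads per library. Of the 9 genes, 4 (Mael, Stk31, Tex101 and Asz1) had 0 reads in each of the 6 libraries and also in the C57BL/10 pair. Over the 8 libraries together 3 reads would make 0.0123 RPM, the limit that a count of 0 allows. Of all genes 23.2% had 0 reads in the 6 libraries.

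Dazl had 1 read in young adult library 3, 1 in aged library 3 and none in the other 4. Slc25a31 had 1, 2 and 0 reads in the young adult libraries and 2, 0 and 4 in the aged libraries. At these counts no difference between the ages was detectable, and both genes stayed under the filter of a mean log2 RPM of -2, which 57.2% of genes passed.

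Ddx4 and Sycp3 had methylated starts and reads in every library. Ddx4 had 26, 12 and 35 reads in young adult and 31, 24 and 55 in aged libraries. On the log2 RPM scale these were -0.66, -0.50 and 0.42 in young adult and -0.37, -0.21 and 0.48 in aged NSPCs. The ages overlapped, with a log2 difference of 0.21 (SE 0.38, adjusted p = 1.00, limma).

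Sycp3 had 45, 11 and 37 reads in young adult and 20, 39 and 52 in aged libraries. Its log2 RPM was 0.13, -0.62 and 0.50 in young adult and -0.9998, 0.49 and 0.40 in aged NSPCs. The ages overlapped, with a log2 difference of -0.04 (SE 0.47, adjusted p = 1.00, limma). Sycp3 lies within Chpt1, a phospholipid synthesis gene on the other strand, and 660 of its 1264 exon bases (52.2%) are also exon of Chpt1. The library kit keeps no strand, so Sycp3 reads from these bases cannot be told apart from Chpt1 reads. Ddx4 overlaps no other gene in GENCODE vM21.

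Tdrkh had the most RNA reads of the 9 genes in each library. Its log2 RPM was 5.62, 5.54 and 5.52 in young adult and 5.65, 5.51 and 5.61 in aged NSPCs, from 789 to 2023 reads per library. The spread within an age was as large as the difference between the ages, 0.03 on the log2 scale (SE 0.08, adjusted p = 1.00, limma). Of its exon bases 36.7% are shared with Oaz3, a gene of late sperm development, at its 3' end.

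For 3 of the 9 genes, Tdrkh, Sycp3 and Ddx4, the RNA test could be run and none was called. In none did the ages separate, which 5.2% of the genes tested did. Over all 14858 genes tested limma called 0 (0%), with 258 at an unadjusted p under 0.05. With the replicate number as a block it called 74 genes (0.498%), and the adjusted p of the 3 were 0.945 for Tdrkh, 0.990 for Sycp3 and 0.884 for Ddx4.

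**Figure D3:**
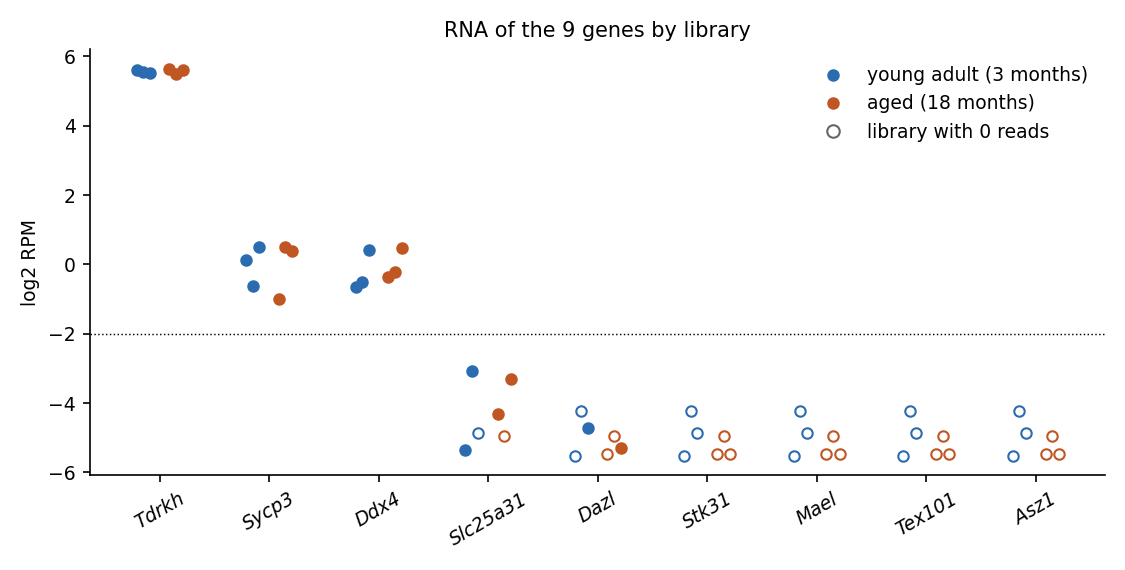
RNA level (log2 RPM) of each gene in each C57BL/6JBabr library, young adult (blue) and aged (orange), with open points for libraries with 0 reads, which the table sets at a floor that depends on depth. The dotted line is the filter at -2. Tdrkh sits between 5.51 and 5.65, Sycp3 and Ddx4 lie around 0, and 4 genes have no read.

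H3K4me3 divided the 9 genes in nearly the same way. In its 5000-bp window Tdrkh had 5.32 log2 RPM at 3 months and 5.52 at 18 months. Dazl came next with 2.08 and 2.06, at the 43.8 percentile of all genes in young adult NSPCs. The remaining 7 genes ran from -1.25 to -0.65 in young adult and had a median of -1.49 in aged NSPCs. Relative to Input their median was -1.59 on the log2 scale in young adult and -2.21 in aged NSPCs. Both Dazl and Tdrkh, 2 of the 9, were above a log2 RPM of 1 in both ages, as were 58.8% of all genes.

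The Dazl window of 5000 bp covers both the methylated start and the unmethylated stretch, so the table does not say which of the stretches holds the H3K4me3 reads. Dazl was 1.43 above Input on the log2 scale at both ages.

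Across the ages, no gene of the 9 met the change rule of 1.5-fold with a log2 RPM above 1 in an age, which 58 of 25875 genes (0.224%) met for H3K4me3 and 407 (1.57%) for H3K27me3. Only Dazl and Tdrkh in H3K4me3 and Tex101 in H3K27me3 were above that level, so the other genes could not meet the rule. In H3K4me3 the differences of Asz1, Sycp3, Stk31 and Mael were past 1.5-fold and fell short by level alone. With 1 value per age these differences have no replicate check. Of the 7 genes with low H3K4me3, 6 were lower still in aged NSPCs, by 0.25 (Slc25a31) to 0.94 (Asz1) on the log2 scale, but this depended on the scaling. With quantile normalization 4 of the 7 were lower, Ddx4 (0.11), Slc25a31 (0.31) and Tex101 (0.48) were higher and Asz1 was at -0.35. With Input subtracted all 7 were lower. On the deposited scale the 8668 genes under 0 in young adult NSPCs had a median difference of -0.43, and the 15383 genes above 1 had 0.21. Tdrkh was 0.20 higher in aged NSPCs on that scale and -0.02 with quantile normalization.

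H3K27me3 was low at most of these starts. Over the 8 methylated genes it ran from -0.20 (Sycp3) to 1.90 (Tex101) in young adult and from -0.58 to 1.93 in aged NSPCs, beside a median of 0.41 over all genes in young adult NSPCs. Tex101 was the 1 gene of the 9 above 1 in both ages, as were 32.3% of all genes. Tdrkh had -0.63 and -0.93.

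A further Stk31 transcript starts 42960 bp into the gene and had 2.90 and 3.15 log2 RPM of H3K27me3 in its window, higher than 91.6% of genes in young adult NSPCs. The oxBS-seq level there rested on 18 calls, of which 88.9% were methylated. At the main Stk31 start H3K27me3 was 0.14 and 0.20.

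**Figure D4:**
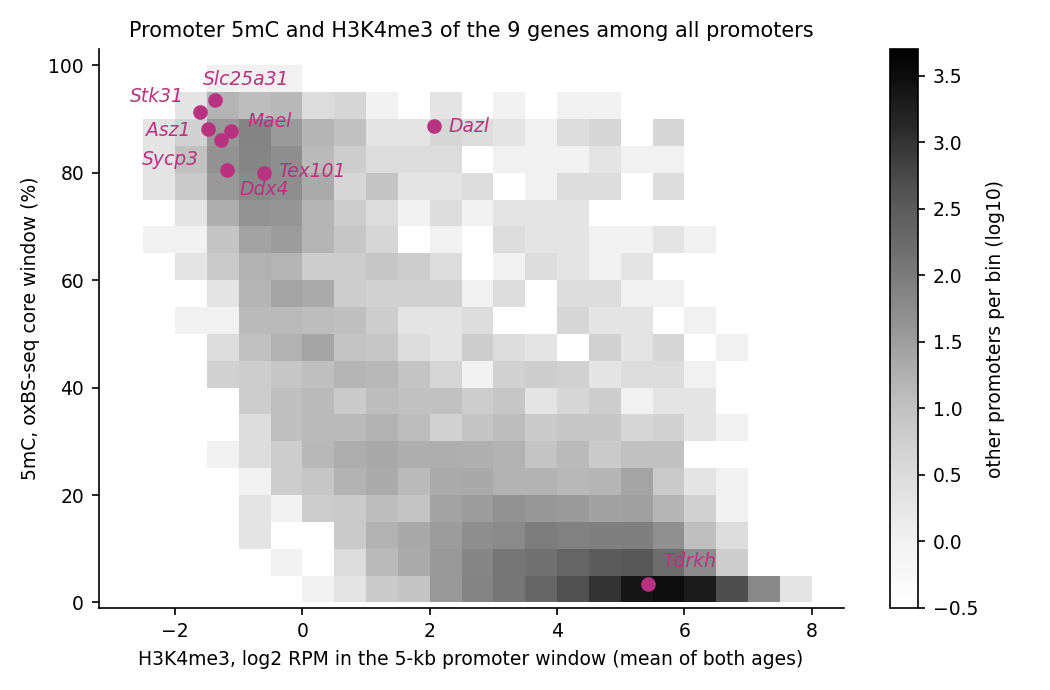
5mC in the core window (oxBS-seq, %) against H3K4me3 in the 5000-bp window (log2 RPM, mean of both ages) for the 9 genes (magenta) and, in grey, the number of other promoters per bin (log10 scale). The 12 promoters beyond the right edge are not drawn. In the picture 7 genes lie in the upper left, Tdrkh at the lower right among the unmethylated promoters, and Dazl at 88.7% with a log2 RPM of 2.07.

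Other starts with the same numbers of CpGs were seldom methylated. The range runs from below the median of all genes, so it is not a class of CpG-rich starts alone. Of the 7981 other genes with 32 to 77 CpGs in the core window, the range of the 8, 142 (1.78%) reached 50% methylated calls. Among the 1278 of them under the RNA filter the share was 6.96%, and among the 6703 over it 0.791%. The 1278 genes with little RNA had a median of 6.55% methylated calls and a median H3K27me3 of 3.01 log2 RPM. The 8 genes had a median H3K27me3 of 0.23.

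The Polycomb reference list shows the other silent state. Its 10 developmental regulators had no gene over the RNA filter, and all 10 had H3K27me3 above 1 log2 RPM in young adult NSPCs, with a median of 6.33. In the 9 that had enough calls the oxBS-seq level was 0.954 to 8.20%. Pax1 (0.954%), Gata6 (0.964%) and Hand2 (1.68%), all transcription factors of organ development, were the lowest, with 63, 64 and 53 CpGs, numbers within the range of the 8 germline genes. T, Pax1 and Gata6 had the most reads of the list, with a mean log2 RPM of -2.56, -4.26 and -4.89. The housekeeping list, with the elongation factor Eef2 and the actin Actb among those with the most RNA reads, had 10.2% or less methylated calls in all 9 promoters measured, and Sdha and Actb were the lowest, both at 0%.

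The genes of the silencing list were expressed. The list holds DNA methyltransferases and their partners, H3K9 methylation factors and members of the PRC1.6 complex that reads E-box and E2F motifs. It also holds an H3K4 demethylase and the Tet enzymes, which oxidize 5mC. All 26 genes passed the RNA filter. Their median was 5.77 log2 RPM and the lowest was 1.07. The most reads were those of the corepressor Trim28 at 7.51, the maintenance methyltransferase Dnmt1 at 7.16 and the H3K9 methyltransferase Ehmt2 at 7.07. None was called between the ages, with or without the replicate block, and the median log2 difference was 0.04. Rnf2, Dnmt3a and Yaf2 had 0% methylated calls.

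A list of 55 other germline genes was measured in the same way. Of these, 54 were in the RNA table, 13 had 0 reads in the 6 libraries, beside 23.2% of all genes, 17 passed the RNA filter and none was called with or without the block. Of the 37 with enough oxBS calls, 22 reached 50% methylated calls, and the median was 74.1%. Of the 22, 20 were under the RNA filter and 2 over it, against 3 under and 12 over among the 15 less methylated genes. H3K27me3 was above 1 log2 RPM in young adult NSPCs in 21 of 54. None was called in oxBS-seq or in BS-seq.

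The exceptions were less methylated genes, with or without RNA over the filter, and methylated genes with RNA over it. Msh5 (0%) and Prdm9 (0.659%), both factors of meiotic recombination, and the piRNA gene Tdrd5 (1.64%) were the least methylated. Msh5 and Prdm9 had RNA at 1.99 and 2.41 log2 RPM, while Tdrd5 had -4.13 with an H3K27me3 of 3.97 in aged NSPCs. Ddx25 (3.85 log2 RPM, 1.70%), Rec8 (3.48, 37.9%) and Brdt (3.40, 88.7%) had the most RNA reads. Brdt, a bromodomain protein of the testis, and Hsf2bp, a recombination factor, were the 2 with a methylated core window and RNA over the filter, and Hsf2bp was named after its values were seen. Hsf2bp had 87.6% methylated calls with an H3K4me3 of 5.76 in its 5000-bp window, and Brdt had an H3K4me3 of -0.32.

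The genes nearest to the median profile of the 9 were sought over 5 standardized measures (oxBS-seq level, RNA in log2 RPM without length correction, H3K4me3, H3K27me3 and CpG number) in the 14544 genes with enough calls. The nearest was Sycp1, a synaptonemal complex gene like Sycp3, at a distance of 0.336, with 88.2% methylated calls and 65 CpGs. Rpl10l followed at 0.590, Gm14329 at 0.591, Hormad1 at 0.593 and 4933416C03Rik at 0.595. Their methylated shares ran from 84.6 to 93.8%. The distances of the 9 to their own median ran from 0.0540 to 5.90, the last being Tdrkh.

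In the C57BL/10 pair, Tdrkh had 5.64 log2 RPM in young adult and 5.61 in aged NSPCs. Sycp3 had 50 and 31 reads, Ddx4 had 45 and 31, and Slc25a31 had 3 and 1. Dazl had none in either library, like Mael, Stk31, Tex101 and Asz1.

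The cultures expressed the markers of NSPCs and of further lists. The filter, which 57.2% of all genes passed, was also met by all 4 astrocyte, all 4 neuron and all 5 oligodendrocyte lineage markers. All 8 NSPC markers passed the filter, with the most reads from Vim, Fabp7 and Nes at 11.7, 10.8 and 10.4 log2 RPM, and their summed level was 12.7 to 12.98 in young adult and 12.6 to 12.9 in aged libraries. The summed level of the 4 astrocyte markers was 10.4 to 10.6 and 10.1 to 10.3 log2 RPM, lower in aged libraries without overlap. Its part in the values of the germline genes was not tested. This was seen among 8 marker lists, and 5.2% of single genes tested separated by age. Aldh1l1 weighs most in the sum, at a mean of 10.0 log2 RPM, beside 6.89 for Gfap and 6.41 for Aldoc. The summed levels of the neuron, oligodendrocyte lineage, microglia, endothelial, pericyte and ependymal lists overlapped between the ages. Of 34 markers 29 were tested and none was called with or without the block, and none of the 34 had 0 reads in all 6 libraries.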

How the data were processed

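SVZ NSPCs of 2 ages were profiled by RNA-seq, native ChIP-seq, BS-seq and oxBS-seq on GRCm38. The submitters' notes name Trim Galore 0.4 and 0.3.7, STAR 2.3.0, Bowtie2 2.2.5 and Bismark 0.12.5 without roles. The authors deposited log2 RPM per gene for each RNA library, log2 RPM in a 5000-bp window around each start with 1 value per age for ChIP, and counts of methylated and unmethylated calls per cytosine, each CpG strand listed separately.

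RNA was tested with limma 3.58.1 (mean log2 RPM of at least -2). Methylation counts were summed within 500 bp of the lowest-numbered transcript start (at least 10 calls per library) and tested with a quasi-binomial model, its dispersion moderated with a prior from promoters of 10 to 90% and held at 1 or above. P-values were Benjamini-Hochberg adjusted over all features. On simulated data limma recovered 87.5% of 2-fold changes in 14858 genes, and the oxBS model 89% of 30-point changes in 14544 promoters (69% with correlated calls). The simulated RNA had a single fixed dispersion and no effect shared by same-numbered libraries. Ddx4 had the largest oxBS-seq difference of the 9 genes, -10.1 points, so these shares do not give the power at such sizes. The promoters changed in the methylation simulation were drawn across levels, and those not above 50% gained the 30 points. Only 8.35% of promoters reached 50% in oxBS-seq, so the recovered shares do not describe the 8 methylated genes.

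Whole reads (all 8 columns, tolerance 0.02) gave edgeR 4.0.16 and DESeq2 1.42.0 alternatives. Deviations of same-numbered RNA libraries correlated at 0.659, 0.179 and 0.724, over 0.1 in each pair, so the RNA fit with the replicate number as a block is given beside the fit without it. For oxBS the correlations were 0.022, 0.038 and 0.014. Promoter sequences are from RefSeq (all 9 genes matched) and the GRCm38.p6 genome. Named genes were all 9 members, the 3 highest by RNA and 3 lowest by oxBS of the germline, silencing, housekeeping and Polycomb lists and of marker lists where the text uses them, and the 5 nearest by profile; 1 gene that the rule names is not reported here. The members and lists were chosen with earlier results of these data known. Replicates were separate derivations. All 8 RNA libraries and 12 methylation libraries were used.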

Additional observations from a re-analysis of the deposited data

Results flagged for a closer look

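Ddx4 RNA was flagged because the C57BL/6JBabr and C57BL/10 libraries moved in opposite directions. The 3 aged C57BL/6JBabr libraries were above the young adult libraries of the same number, by 0.29, 0.29 and 0.06 on the log2 scale, while the C57BL/10 pair gave -0.39. The difference was not tested, since C57BL/10 had 1 library per age, with 45 and 31 reads, and strain and housing facility cannot be told apart. The labels do not say that libraries of the same number are pairs. Taken without the number, the C57BL/6JBabr ages overlapped, with a log2 difference of 0.21 (SE 0.38), and -0.042 without aged library 3.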

How the results depend on the processing

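Under the alternatives tried, no gene of the 9 that could be tested was called in RNA, oxBS-seq or BS-seq (3 in oxBS-seq and 4 in BS-seq had enough calls with 250 bp, and 2 and 3 with at least 20 calls), and 8 of 9 stayed at 50% methylated calls or more, with Dazl at 50.0% in the 1000-bp window. The median level of the 9 genes moved from 87.7% to 81.9% with 1000 bp and to 79.2% with 2500 bp on either side, and without 1 library each it was 86.6 to 88.9%.

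For the 14858 genes, the replicate block called 74 (30 higher and 44 lower in aged) and DESeq2 called 4, against 0 in limma and in edgeR. For oxBS-seq and BS-seq the replicate block called 0 promoters. A chi-squared test on pooled calls, which leaves out the spread between libraries, called 33 and 25. At least 5 calls gave 1 promoter in BS-seq. Without 1 library each, oxBS-seq calls were 0 to 1 (the 1 without aged replicate 2), and RNA and BS-seq calls were 0.

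Uncalled RNA, oxBS-seq and BS-seq differences changed direction in 28 of 244 recomputed values. The 244 include settings that leave a difference as it is and so could not change its direction. These are the replicate block, the other limits on calls and the other RNA filters. On the log2 scale Sycp3 RNA was 0.0034 with DESeq2. In points, oxBS-seq Tdrkh was 1.45 in the chi-squared test, 2.94 with 1000 bp and 2.92 with 2500 bp, and Dazl 6.02 with 2500 bp. In BS-seq, Asz1 was -3.10 in the chi-squared test, -3.56 with 250 bp, -0.79 with 1000 bp and -2.79 with 2500 bp. With 1000 bp Sycp3 was -1.13, and with 2500 bp Ddx4 was -0.73 and Stk31 1.69. Without 1 library each, RNA differences ran from -0.0030 to 0.068 for Tdrkh, from -0.35 to 0.44 for Sycp3 and from -0.042 to 0.55 for Ddx4. The oxBS-seq differences ran from -3.25 to 2.28 points for Dazl, from -2.20 to 1.68 for Tdrkh and from -0.78 to 6.95 for Asz1. The BS-seq differences ran from -10.6 to 1.40 for Mael, from -1.14 to 3.72 for Dazl and from -4.96 to 3.89 for Asz1. Of the histone marks, quantile normalization turned H3K4me3 of Ddx4 to 0.11, of Slc25a31 to 0.31 and of Tdrkh to -0.02, and H3K27me3 of Mael to 0.03. Input subtraction turned Tex101 to -0.18 in H3K4me3 and to -0.24 in H3K27me3, and Mael to 0.08 in H3K27me3. The cause of these changes was not tested. Calls per promoter limit the methylation comparison, and the 1 value per age limits the histone marks.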
